A study of Sus scrofa with 8 samples.

Results

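The AP-1 and immediate early genes are a set of 10 genes: JUN, JUNB, JUND, FOS, EGR1, ATF3, MYC, IER3, DUSP1 and IER2. Their probesets were found by gene symbol, in the annotation of the array or in the study's own list of named probesets, and every match found was kept. This gave 12 of the 24123 probesets on the array, for 9 of the 10 genes. No probeset was matched to JUNB, but the study's list was read in a shortened copy, so a probeset that it alone names could be missing here. Of the 12 probesets, 10 were named by the annotation of the array and stand for 8 genes. The other 2, the probeset of JUND and 1 of the 4 probesets of EGR1, were named by the study's list alone. That list holds probesets the study had called between the same breeds, so both are described here with no test. The list also holds the JUN probeset, and its test is therefore no independent evidence of its direction.

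Endometrium, the lining of the uterus, was compared between Meishan gilts (4 animals) and Yorkshire gilts (4 animals) on day 12 of gestation, with 1 one-colour Affymetrix Porcine Genome array per gilt. Meishan is a Chinese breed known for large litters, and Yorkshire is a widely used commercial breed. Gilts of both breeds had been mated naturally to boars of their own breed at the second or the third estrus, and females without elongated conceptuses had been left out. The tracts came from slaughtered animals and the endometrium was frozen afterwards, in both breeds alike, and the sources name no further treatment.

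Immediate early genes are transcribed within minutes of a signal, without any need for new protein synthesis. AP-1 is a dimer of Jun proteins with each other or with Fos or ATF proteins, which binds DNA through a basic region beside a leucine zipper, and MAP kinases act on both its synthesis and its activity. In the endometrium these genes are known to respond to steroid hormones and growth factors.

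Signals are the authors' linear intensities, centred here on the median of each array, so breed differences were taken between gilts within a probeset. Signals of different probesets were used together to sort them by brightness and to sum markers. Means are geometric means of 4 gilts, and a log2 difference is Meishan minus Yorkshire, so a negative value means a higher signal in Yorkshire. A probeset was called at a limma adjusted p under 0.1 with Benjamini-Hochberg adjustment over all 23999 probesets that are not controls. Of these, 218 were called, which is 0.908% of them.

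The deposited arrays were scaled alike, with median signals of 168.5 to 194.7 in Meishan and 171 to 187 in Yorkshire. Pearson correlations of log2 signals between arrays were 0.899 to 0.916 within Meishan, 0.915 to 0.936 within Yorkshire and 0.892 to 0.916 between breeds. The mean signal of the hybridization spike-ins did not overlap between the breeds, at 2872 to 5290 in Meishan and 1367 to 2009 in Yorkshire. This log2 difference of 1.01 coincides with breed, so the 2 cannot be told apart. Its part in the member differences was not tested. Ratios of the 3' to the 5' control probesets of GAPDH, a measure of RNA integrity, were 3.41 to 7.14 in Meishan and 3.38 to 5.68 in Yorkshire. Markers of uterine epithelium (8 of 9 measured) and of stroma (7 of 9 measured) all had mean signals of at least 64.

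JUN had the largest difference among the tested members and averaged 1804 in Meishan and 4809 in Yorkshire. No member was called, against the 0.908% of all probesets that were. Of the 10 tested probesets, 8 lay toward Yorkshire and 2 toward Meishan, where 48.3% of all probesets lay toward Yorkshire. The median log2 difference was -0.53 over the 10 probesets and 0.021 over all probesets. Taking 1 probeset per gene, the brightest, 6 of 8 genes lay toward Yorkshire with a median of -0.37. Bright probesets as a whole leaned the same way. All probesets were sorted by signal into 10 groups of like size. Those in the 3 brightest groups (8, 9 and 10) lay toward Yorkshire in 62.4%, 63.1% and 54.3% of cases. Of the 12 members, 9 were in these 3 groups, and all 9 were among the 10 tested probesets.

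**Figure D1:**
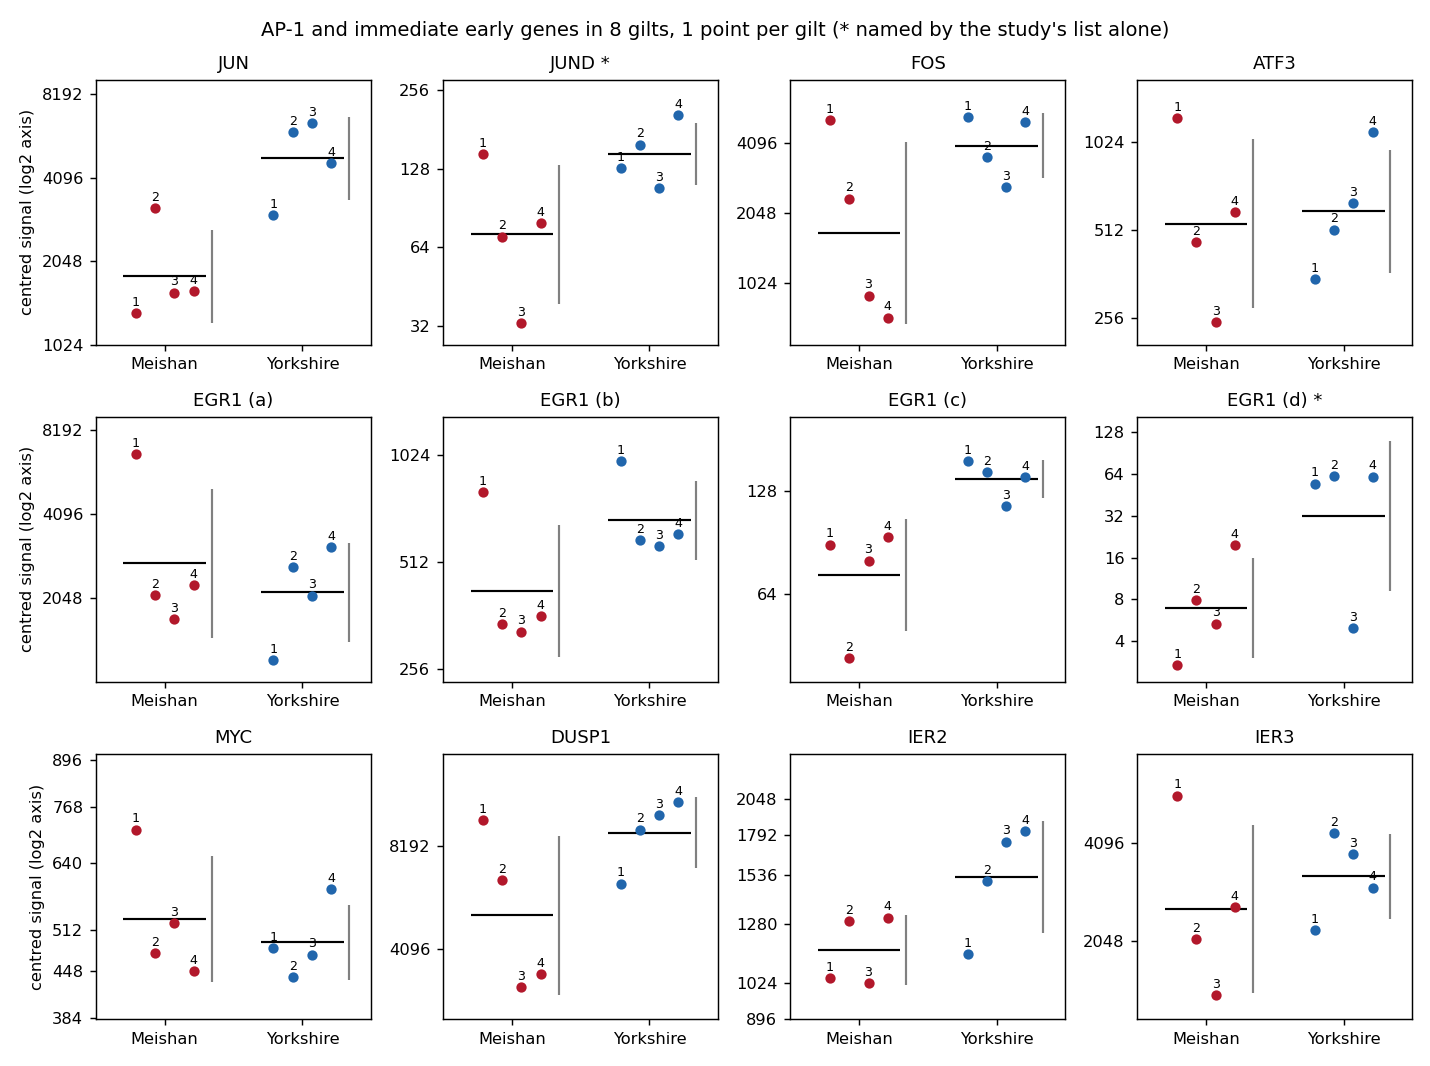
Centred signal on a log2 axis (arbitrary units) of the 12 probesets, 1 numbered point per gilt, Meishan left and Yorkshire right, with the geometric mean as a line and 1 SD of the log2 values as a grey bar. The breeds overlap in every panel except EGR1 (c), and Meishan gilt 1 stands above the other Meishan gilts for FOS, ATF3, EGR1 (a), EGR1 (b), JUND, MYC, DUSP1 and IER3.

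JUN encodes c-Jun, a Jun subunit that strongly activates transcription. Its probeset had signals of 1327, 3176, 1576 and 1596 in Meishan gilts 1 to 4, against 2997, 5985, 6439 and 4633 in Yorkshire gilts 1 to 4. Only Meishan gilt 2 reached into the Yorkshire range, where it passed Yorkshire gilt 1, and the other 3 Meishan gilts lay below every Yorkshire gilt. The log2 difference was -1.41 (SE 0.35, 95% interval -2.23 to -0.60, n = 4 gilts per breed), which is 2.67-fold higher in Yorkshire, with a limma adjusted p = 0.145. By its unadjusted p, JUN was at rank 624 of 23999 probesets.

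Leaving out 1 gilt at a time, the JUN difference was between -1.69, without Meishan gilt 2, and -1.27, without Meishan gilt 1, with limma adjusted p between 0.112 and 0.288. JUN was called with dim probesets left out (limma adjusted p = 0.0910), with an intensity trend in the variance prior (0.0542) and with Storey q-values (0.0983). Within each breed JUN was highest in the gilt with the highest 3' to 5' ratio of GAPDH, Meishan gilt 2 (7.14) and Yorkshire gilt 3 (5.68). With the 3' to 5' ratio as a covariate, an alternative chosen after seeing the data, the difference was -1.40 and JUN was called (limma adjusted p = 0.0794).

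Unlike JUN, the summed signal of 7 endothelium markers did not overlap between the breeds, at 5409 to 5499 in Meishan and 5852 to 7695 in Yorkshire. Every other summed list overlapped. Of the 7 single markers, 2 did not overlap, beside 10.1% of all single probesets. The highest values of the sum, 7695 and 7658, were in Yorkshire gilts 2 and 3, where JUN was highest too. Within Meishan the sum hardly varied, at 5409, 5499, 5498 and 5479 in gilts 1 to 4, while JUN ran from 1327 to 3176. Of the 7 markers, 6 lay toward Yorkshire, led by CLDN5, a tight junction protein of vessels (log2 difference -0.71, limma adjusted p = 0.170), and CDH5, the cadherin of endothelial junctions (-0.58, limma adjusted p = 0.185). The summed signal of 4 conceptus trophoblast markers was 126, 1169, 597 and 275 in Meishan gilts 1 to 4, against 4846, 459, 6725 and 238 in Yorkshire gilts 1 to 4. It was highest in the gilt of each breed with the highest JUN signal and lowest in Meishan gilt 1, where JUN was lowest, but high in Yorkshire gilt 1, the Yorkshire gilt with the lowest JUN signal. In such a sum the gene with the largest signals weighs most. Here that was IFNG, with means of 145 in Meishan and 681 in Yorkshire, followed by GATA3, with 79.6 and 132. The part of these markers in the member differences was not tested, and in a piece of tissue fewer cells of a type and less RNA per cell cannot be told apart.

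JUND encodes a Jun subunit that most tissues make without stimulation. The probeset that the study's list names for it had signals of 145.6, 70.4, 32.8 and 79.1 in Meishan gilts 1 to 4, against 128.4, 158.2, 107.9 and 204.4 in Yorkshire gilts 1 to 4. Meishan gilt 1 lay within the Yorkshire range and the other 3 Meishan gilts below it. The means were 71.8 in Meishan and 145.5 in Yorkshire, a log2 difference of -1.02. It was -0.64 without Meishan gilt 3 and -1.36 without Meishan gilt 1.

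FOS encodes c-Fos, which pairs with a Jun protein to bind DNA. Its signals were 5148, 2362, 905 and 728 in Meishan gilts 1 to 4, against 5296, 3568, 2656 and 5050 in Yorkshire gilts 1 to 4. Meishan gilt 1 lay between the 2 highest Yorkshire gilts, while Meishan gilts 2, 3 and 4 lay below all of Yorkshire. The means were 1683 in Meishan and 3990 in Yorkshire, and the log2 difference of -1.25 (SE 0.61, n = 4 gilts per breed) was not called (limma adjusted p = 0.394).

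The spread of FOS among gilts was wide. The highest Meishan gilt had 7.07 times the signal of the lowest, and the highest Yorkshire gilt 1.99 times that of the lowest. The SD of log2 signal was 1.30 in Meishan and 0.47 in Yorkshire, beside medians of 0.33 in Meishan and 0.31 in Yorkshire over the 16718 probesets with a mean signal of at least 64. The SD within breeds, 0.98, was larger than that of 96.9% of those probesets. Whether the spread differed between the breeds was not tested. Without Meishan gilt 1 the FOS difference was -1.78, and without Meishan gilt 4 it was -0.84.

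ATF3 encodes a stress-induced partner of Jun proteins that can repress transcription. It had signals of 1234, 466, 248 and 591 in Meishan gilts 1 to 4, against 348, 514, 633 and 1110 in Yorkshire gilts 1 to 4. The breeds overlapped almost fully, and the highest and the lowest of the 8 gilts were both Meishan. The log2 difference was -0.14 (SE 0.53, 95% interval -1.36 to 1.07, limma adjusted p = 0.926, n = 4 gilts per breed). It was 0.23 without Meishan gilt 3 and 0.16 without Yorkshire gilt 4, so the direction of ATF3 turned with single gilts.

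EGR1 encodes a zinc finger transcription factor, induced through SRF, the serum response factor, and its 4 probesets did not give 1 picture. They are called a, b, c and d, in order of brightness. Probeset a, the brightest, had EGR1 signals of 6688, 2109, 1724 and 2279 in Meishan gilts 1 to 4, against 1235, 2653, 2093 and 3119 in Yorkshire gilts 1 to 4. Meishan gilt 1 was far above the other 7 gilts, which overlapped. The EGR1 difference at probeset a was 0.34 toward Meishan (SE 0.48, limma adjusted p = 0.782, n = 4 gilts per breed), and -0.088 without Meishan gilt 1.

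Probeset b of EGR1, of a type that can match several transcripts, had signals of 806, 342, 327 and 361 in Meishan gilts 1 to 4, against 987, 590, 568 and 614 in Yorkshire gilts 1 to 4. In each breed gilt 1 stood above the other 3, and the other 3 Meishan gilts lay below the other 3 Yorkshire gilts. The difference was -0.66 (SE 0.34, limma adjusted p = 0.416, n = 4 gilts per breed). Probeset c of EGR1 had signals of 89.1, 41.6, 80.0 and 93.8 in Meishan gilts 1 to 4, against 156.6, 145.3, 115.8 and 140.4 in Yorkshire gilts 1 to 4. It was the only tested member whose breeds did not overlap, where 10.1% of all probesets did not overlap, 5.09% with Yorkshire higher.

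The EGR1 difference at probeset c was -0.93 (SE 0.29, limma adjusted p = 0.201, n = 4 gilts per breed), with means of 72.6 in Meishan and 138.7 in Yorkshire. It lay between -1.06 without Meishan gilt 4 and -0.67 without Meishan gilt 2, whose signal of 41.6 was under 64. JUN and probeset c of EGR1 were the 2 of 10 with an unadjusted p under 0.05, a mark passed by 14.8% of all probesets. Probeset d of EGR1, named by the study's list alone, was below 64 in every gilt, with 2.69, 7.9, 5.3 and 19.8 in Meishan gilts 1 to 4 against 54.6, 61.6, 4.95 and 61.4 in Yorkshire gilts 1 to 4. Yorkshire gilt 3 lay among the Meishan gilts. The log2 difference of -2.21 became -0.66 when signals under 32 were set to 32.

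Deviations of the gilts from their breed mean correlated between pairs of EGR1 probesets at -0.25 to 0.46 (Pearson, 8 gilts, as a description). Probesets a and b, which share the first part of their name, gave the highest value. Which part of the EGR1 transcript each probeset measures is not given in the sources used here.

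MYC encodes a transcription factor that drives cell growth and division. The probeset of MYC, like probeset b of EGR1, is of a type that can match several transcripts. Its signals were 713, 475, 524 and 448 in Meishan gilts 1 to 4, against 483, 439, 473 and 586 in Yorkshire gilts 1 to 4. Meishan gilt 1 was the highest, and the other gilts overlapped. The log2 difference was 0.11 (SE 0.21, 95% interval -0.37 to 0.59, limma adjusted p = 0.848, n = 4 gilts per breed). It was -0.032 without Meishan gilt 1. The SD of MYC within breeds, 0.25, the smallest among the members, was larger than that of 24.5% of probesets with a mean signal of at least 64.

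**Figure D2:**
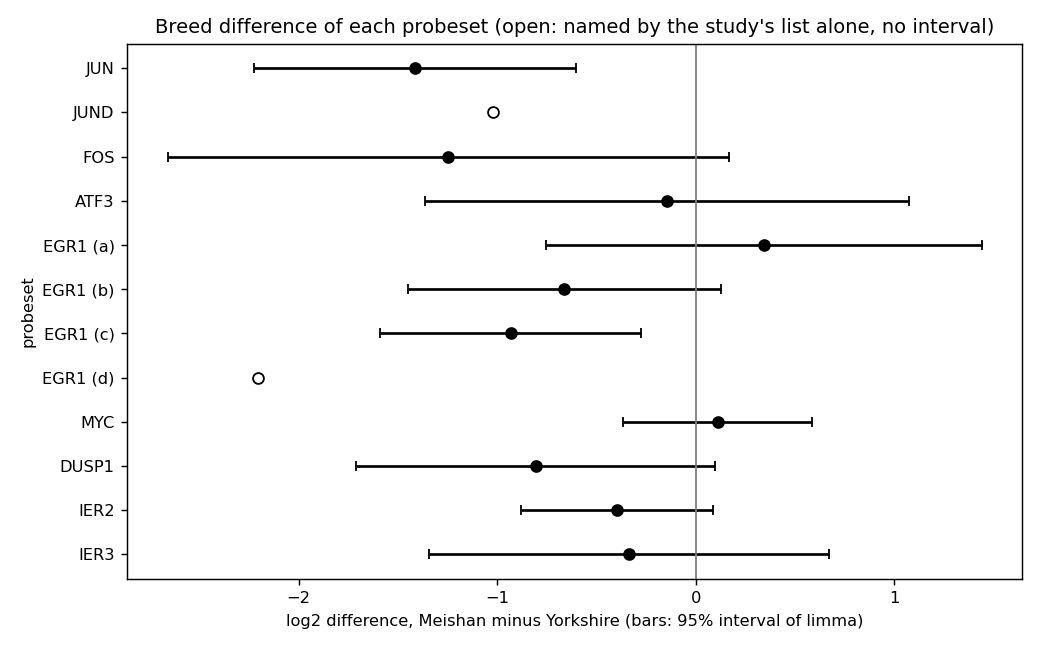
Log2 difference, Meishan minus Yorkshire, of each member probeset, with the 95% interval of limma for the 10 tested probesets and open points for the 2 named by the study's list alone. The intervals of JUN and EGR1 (c) lie below 0, and those of the other 8 tested probesets cross 0.

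DUSP1 encodes a phosphatase that switches off MAP kinases and is itself induced by them. Its signals were 9793, 6529, 3169 and 3448 in Meishan gilts 1 to 4, against 6366, 9179, 10117 and 11026 in Yorkshire gilts 1 to 4. Meishan gilts 3 and 4 lay below all other gilts, and Meishan gilts 1 and 2 were within the Yorkshire range. The means were 5141 in Meishan and 8986 in Yorkshire, and the difference of -0.81 (SE 0.39, n = 4 gilts per breed) was not called (limma adjusted p = 0.390).

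IER3 encodes a regulator of cell survival that acts on ERK signalling. Its signals were 5709, 2073, 1393 and 2600 in Meishan gilts 1 to 4, against 2206, 4385, 3782 and 2984 in Yorkshire gilts 1 to 4. Meishan gilt 1 was again the highest of all, and the breeds overlapped. The difference was -0.34 (SE 0.44, limma adjusted p = 0.765, n = 4 gilts per breed), and it lay between -0.72 without Meishan gilt 1 and -0.045 without Meishan gilt 3.

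IER2 encodes a small nuclear protein with a part in transcription. Its signals were 1043, 1292, 1025 and 1310 in Meishan gilts 1 to 4, against 1144, 1502, 1744 and 1814 in Yorkshire gilts 1 to 4. Yorkshire gilts 2, 3 and 4 were above every Meishan gilt, and Yorkshire gilt 1 was within the Meishan range. The difference was small, -0.40 (SE 0.21, limma adjusted p = 0.427, n = 4 gilts per breed), and the means were 1160 in Meishan and 1527 in Yorkshire gilts.

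**Figure D3:**
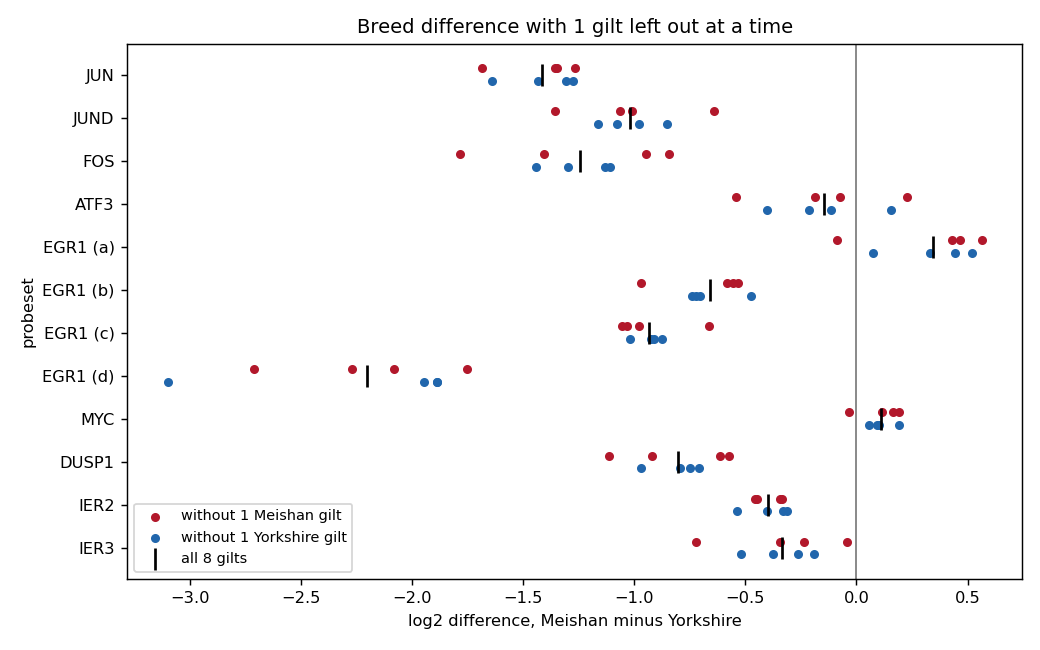
Log2 difference, Meishan minus Yorkshire, of each member probeset with all 8 gilts (bar) and without 1 Meishan gilt (red) or 1 Yorkshire gilt (blue). JUN stays between -1.69 and -1.27, while ATF3, EGR1 (a) and MYC have points on both sides of 0.

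Individual gilts were high or low for several members at once. With 1 probeset per gene, Meishan gilt 1 was the highest Meishan gilt for 6 of 8 genes, all but JUN and IER2, and JUN was lowest in it. Meishan gilt 3 was the lowest for 5 genes. Among Yorkshire gilts, gilt 4 was the highest for 5 genes and gilt 1 the lowest for 6. The mean deviation over the 8 genes was 0.75 in Meishan gilt 1 and -0.58 in Meishan gilt 3 on the log2 scale, beside 0.30 in Yorkshire gilt 4 and -0.42 in Yorkshire gilt 1. Meishan gilt 1 also had the lowest 3' to 5' ratios of Meishan, 3.41 for GAPDH and 1.56 for actin, while in Yorkshire the lowest GAPDH ratio, 3.38, was in gilt 4 and the lowest actin ratio, 2.01, in gilt 1. The summed signal of 8 epithelium markers was highest in Meishan gilt 1 within Meishan, at 45735 against 27978 to 36680 in the other 3, and in Yorkshire gilt 4 within Yorkshire, at 45567 against 30713 to 38703. The part of RNA integrity and of epithelium in these patterns was not tested.

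**Figure D4:**
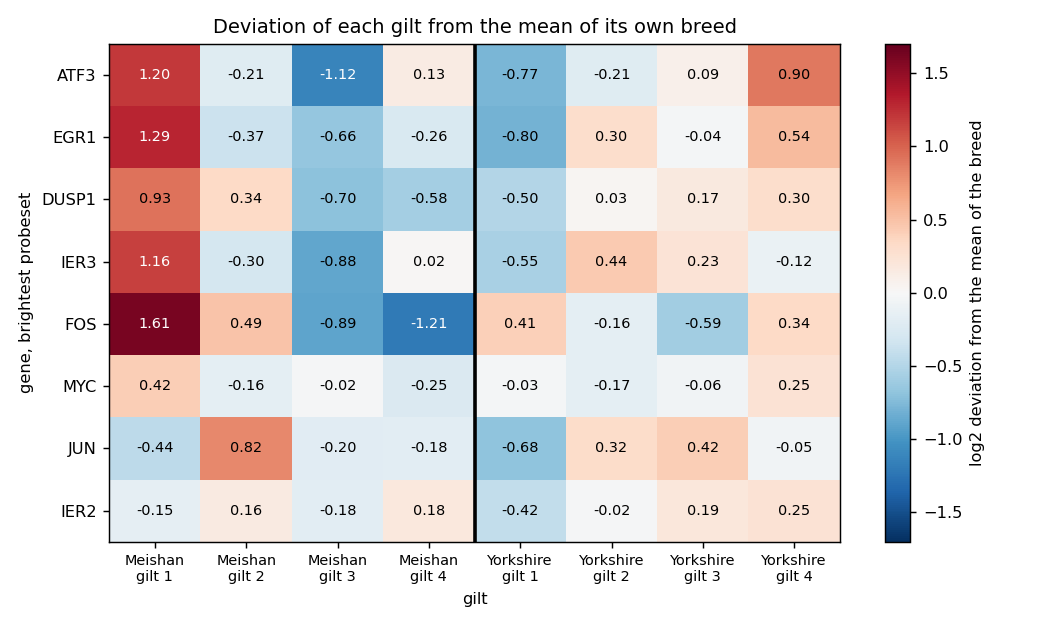
Log2 deviation of each gilt (columns, Meishan left of the line and Yorkshire right of it) from the mean of its breed, for the brightest probeset of 8 genes (rows). Meishan gilt 1 is at 0.93 or more for ATF3, EGR1, DUSP1, IER3 and FOS and below 0 for JUN and IER2.

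Over the 28 pairs of these 8 genes, the deviations from the breed mean correlated positively in 22, with a median Pearson r of 0.52. The values ran from -0.44 for JUN with MYC to 0.90 for ATF3 with EGR1 (8 gilts that share their arrays, as a description). ATF3, EGR1, DUSP1 and IER3, a group chosen after its values were seen, correlated with each other at 0.76 to 0.90, and at 0.43 to 0.82 when Meishan gilt 1 was left out. JUN stood apart from FOS (-0.17), its usual partner, and went most with IER2 (0.68). Without Meishan gilt 1 the value was 0.24 for JUN with FOS and 0.64 for JUN with IER2. JUN with DUSP1 was at 0.27 with all gilts and 0.89 without Meishan gilt 1, so these values depend on that gilt.

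With all 8 gilts the member most like FOS was DUSP1, with a Pearson r of 0.79 and a Spearman correlation of 0.81, and r = 0.42 without Meishan gilts 1 and 4, the 2 farthest from the median of FOS. Without them DUSP1 no longer ranked highest, as r was 0.83 for JUND, 0.62 for probeset d of EGR1 and 0.49 for its probeset b. Among 8010 probesets with 1 symbol and a mean log2 signal of at least 6, the 5 genes most like FOS were RHOF, LIMA1, HSF2BP, ENTPD4 and LOC100511376. With all 8 gilts DUSP1 was at rank 213 of these 8010. RHOF had r = 0.97, as did LIMA1, an actin-binding protein, and HSF2BP, a partner of a heat shock factor. ENTPD4, a nucleotide-hydrolysing enzyme of internal membranes, had r = 0.97 and LOC100511376 had r = 0.96. Without Meishan gilts 1 and 4 these 5 genes were between 0.90 for LIMA1 and 0.97 for ENTPD4, and after quantile normalization LIMA1 was at 0.75. The 5 genes were picked for their high r among the 8010 probesets on these same arrays. Values from a part of the arrays are therefore no independent check, and all are given as a description.

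Other genes of the pathway were read from lists, with 1 probeset per gene, and none of them was called. Of 18 other AP-1 and ATF dimer genes, 8 were measured, 3 toward Meishan and 5 toward Yorkshire. CREB1, the cyclic AMP response factor, was at 101 in Meishan and 66.1 in Yorkshire with no overlap (difference 0.61, limma adjusted p = 0.278). The Fos relative FOSL2 was at 626 in Meishan and 903 in Yorkshire (difference -0.53, limma adjusted p = 0.511). DDIT3, a stress-induced dimer partner, was at 239 in Meishan and 330.3 in Yorkshire (difference -0.47, limma adjusted p = 0.343). ATF5 was dim, at 29.0 in Meishan and 19.6 in Yorkshire, with overlap (difference 0.57, limma adjusted p = 0.431).

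Among 46 other immediate early genes, 30 were measured, 10 toward Meishan and 20 toward Yorkshire, with a median of -0.29 where all probesets had 0.021. Of the 30, 27 had a mean signal of at least 64. Bright probesets as a whole leaned toward Yorkshire, in 62.4% and 63.1% of cases in signal groups 8 and 9. The part of brightness in this count was not tested. Unadjusted p was under 0.05 for 4 of the 30, all toward Yorkshire. This mark was passed by 14.8% of all probesets in both directions together, and by 6.96% with Yorkshire higher. CEBPD, an inducible factor of the C/EBP family, had means of 2264 in Meishan and 3802 in Yorkshire (difference -0.75, limma adjusted p = 0.161), and GEM, a small GTPase, 146 in Meishan and 217 in Yorkshire (difference -0.57, limma adjusted p = 0.248). KLF10, a TGF-beta-induced zinc finger factor, had 1870 in Meishan and 2590 in Yorkshire (difference -0.47, limma adjusted p = 0.316). The breeds did not overlap for these 3 of 30 genes, a share like the 10.1% of all probesets. ID2, an inhibitor of helix-loop-helix factors, had 40.7 in Meishan and 192 in Yorkshire (difference -2.24, limma adjusted p = 0.281), with overlap.

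Upstream kinases carry the signal to these genes. Of 36 listed genes, which include SRF and its cofactors, 13 were measured, all of them kinases, 7 toward Meishan and 6 toward Yorkshire, with a median of 0.19. RPS6KA3, a kinase activated by ERK, was at 275 in Meishan and 176 in Yorkshire (difference 0.65, limma adjusted p = 0.163). MAPK3, which is ERK1, was at 1113 in Meishan and 767 in Yorkshire (difference 0.54, limma adjusted p = 0.183). The breeds did not overlap for either kinase, nor for MAPKAPK5 (0.31) and MAPK9, a JNK (-0.31), which makes 4 of 13 genes beside 10.1% of all probesets.

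MAP kinase phosphatases other than DUSP1 had 4 of 14 genes measured, 2 on each side. DUSP6, which acts on ERK, has 2 probesets. The brighter was at 2489 in Meishan and 3444 in Yorkshire (difference -0.47, limma adjusted p = 0.422). The median difference was -0.17 over the 4 genes and 0.13 over all 5 of their probesets, so the other DUSP6 probeset lay toward Meishan. Of 16 MYC partners and antagonists 5 were measured, 3 toward Meishan and 2 toward Yorkshire, and MYCBP, a MYC-binding protein, was at 424 in Meishan and 275 in Yorkshire with no overlap (difference 0.63, limma adjusted p = 0.203). Of 21 known AP-1 target genes 12 were measured, 6 on each side with a median of -0.024. SPP1, the secreted adhesion protein osteopontin, had the lowest p among them, at 1025 in Meishan and 2327 in Yorkshire (difference -1.18, SE 0.57, limma adjusted p = 0.383).

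**Figure D5:**
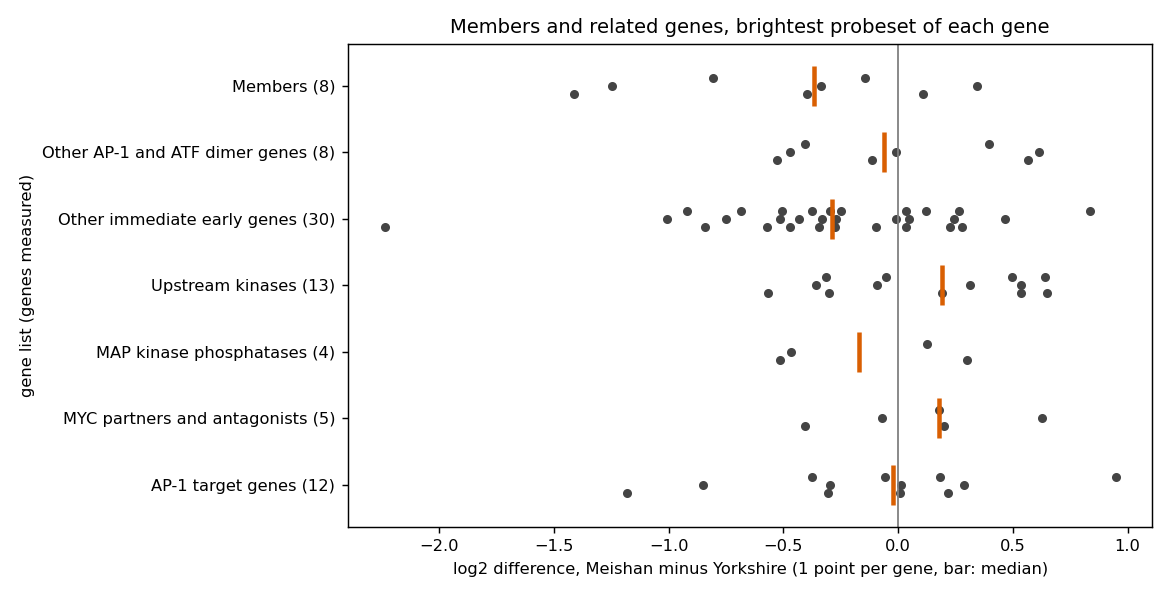
Log2 difference, Meishan minus Yorkshire, of the 8 tested member genes and of 6 lists of related genes, 1 point per gene at its brightest probeset, with the median as a bar. The medians are -0.37 for the members, -0.29 for other immediate early genes and 0.19 for upstream kinases.

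Markers of other cells that a piece of endometrium can hold overlapped between the breeds in summed signal. Leukocyte markers, 5 of 8 measured, summed to 891 to 1102 in Meishan and 834 to 1015 in Yorkshire. Smooth muscle markers, 5 of 6 measured, summed to 8789 to 20313 in Meishan and 13246 to 20828 in Yorkshire, and blood cell markers, 3 of 6 measured, to 919 to 1252 in Meishan and 832 to 1333 in Yorkshire. Conceptus trophoblast markers, 4 of 10 measured, summed to 126 to 1169 in Meishan and 238 to 6725 in Yorkshire. They were led by IFNG, an interferon that pig trophoblast secretes. The part of these cells in the member differences was not tested.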

How the data were processed

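The authors converted scanner images to linear signal intensities with GCOS 1.2, the version in the submitters' processing notes, and these intensities were deposited, 1 array per gilt. A trimmed mean of 500.1 on each array (2% cut from both ends) showed that they were already scaled. Precision is limited by the number of arrays. After 124 control probesets were left out, log2 signals were centred on the array median and the breeds compared in limma 3.58.1 under R 4.3.3 with moderated variances (2.09 prior degrees of freedom), adjusting p-values over 23999 probesets by Benjamini-Hochberg. The threshold of 0.1 is that of the study's q-values. The scripts were checked on simulated data.

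Symbols came from the annotation of the array (1 symbol for 10069 probesets, several for 198, none for 13732). Matching through Entrez identifiers changed 0 of them. The study's list of probesets, of which a shortened copy was read, gave symbols only, and its fold changes and p-values were not used. All member probesets are described. In each other list, genes were named from the 4 with the lowest p at their brightest probeset, together with the 5 genes most like FOS in their deviations from the breed mean. The members and lists were chosen with earlier results of these data known.

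The alternatives were unscaled signals, quantile or cyclic loess normalization, keeping only probesets at 64 or more in 2 arrays of a breed, a floor of 32, an intensity trend, no moderation, array weights, Storey q-values, an unmoderated linear model of uncentred signals with Storey q-values (the study fitted a mixed model in SAS, which was not rerun), a stricter threshold of 0.05, replicate numbers as a block, and leaving out each gilt. The replicate numbers did not pair the gilts: deviations of same-numbered gilts correlated at -0.0561, 0.0890, 0.00105 and 0.0407.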

Additional observations from a re-analysis of the deposited data

Results flagged for a closer look

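Among 24 groups of 4 gilts, 3 held a gilt far from the rest: its gap to the nearest other gilt, as a share of the group's whole range in log2 signal, was above Dixon's 95% critical value. Chance flags about 1 group in 20. At probeset b of EGR1 the gilts were Meishan gilt 1, with a signal of 806 (ratio 0.8897), and Yorkshire gilt 1, with 987 (ratio 0.8612). At probeset d of EGR1 it was Yorkshire gilt 3, with a signal of 4.95 (ratio 0.9527), where all 8 signals were under 64.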

How the results depend on the processing

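The number of called probesets, 218 as reported, was 580 with dim probesets left out, 863 with a floor of 32, 626 with an intensity trend, 497 with array weights, 636 with Storey q-values, 577 with an unmoderated linear model of uncentred signals and Storey q-values, and 60 at an adjusted p under 0.05. With the replicate number as a block it was 0 (limma, 3327 at an unadjusted p under 0.05), and the block called no member. Leaving out 1 gilt gave 72, without Meishan gilt 4, to 205, without Meishan gilt 1, with 111 or fewer without Meishan gilt 2, 3 or 4 or Yorkshire gilt 1, 2 or 3. Called members, 0 as reported, were 1, JUN, with dim probesets left out, an intensity trend, Storey q-values and the 3' to 5' ratio as a covariate (chosen after seeing the data), and 0 in the other 17 of 21 alternatives. Leaving out 1 gilt called 0 members each time. It turned the sign of EGR1 probeset a, at -0.088 to 0.56, of MYC, at -0.032 to 0.19, and of ATF3, at -0.54 to 0.23 (0.16 without Yorkshire gilt 4). No other alternative turned the direction of a member. The causes were not tested. Probeset d of EGR1 was too dim for the filter at 64.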
